A study of Mus musculus with 12 samples.

Results

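The genes described here are the CDK inhibitors of the Cip/Kip class (Cdkn1a and Cdkn1b) and of the INK4 class (Cdkn2a, Cdkn2b, Cdkn2c and Cdkn2d), together with the D-type cyclins (Ccnd1, Ccnd2 and Ccnd3). They were chosen by name, 9 genes in all, and 8 of them were matched among the 37991 gene identifiers counted. The identifier of Cdkn2d, which encodes p19Ink4d, was not among those counted, and Cdkn2d was not analysed here. All 8 matched genes passed the filter on low counts and were tested with 15327 genes in total.

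RNA-seq was performed on primary mouse embryonic fibroblasts (MEFs) of the FVB strain, grown from embryos of 13.5 days, kept at low oxygen and used at passage 3. The MEFs were wild type (WT) or carried the E2f1 3KR allele on both copies (3KR), a knock-in in which 3 lysines of E2F1 that are acetylated are arginine. Cells of each genotype were left untreated or were treated for 3 h with 250 ng/ml neocarzinostatin (NCS), a drug that breaks DNA as ionizing radiation does, and each of the 4 groups held 3 samples. The labels do not say whether the 3 samples of a group came from separate embryos or cultures, so p-values measure the spread between these samples, which may be technical. The knock-in is in the germline, so the mutant protein was present throughout development.

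D-type cyclins bind CDK4 or CDK6, and the active kinases begin to phosphorylate the retinoblastoma protein RB, which releases E2F transcription factors and lets cells enter S phase. INK4 proteins bind CDK4 and CDK6 and keep the D-type cyclins off them. The Cip/Kip proteins p21 and p27 instead bind whole cyclin-CDK complexes and inhibit mainly those of CDK2. In fibroblasts, p21 is the arrest gene of the p53 response to DNA damage, while the Cdkn2a-Cdkn2b locus is known for its rise as primary MEFs are passaged in culture.

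Promoter sequences are shown for Cdkn1a, which had the lowest p of all genes for NCS in both genotypes, and for Cdkn2a and Cdkn2b, neighbours on chromosome 4 that differed between genotypes. They are the 250 bases before a RefSeq start in GRCm38.p6, given on the gene's strand, and RefSeq entries were matched for 7 of the 9 genes. The build is not that of the deposited counts, which carry no coordinates. Capitals in Cdkn1a mark matches to the p53 decamer, the 10-base unit that p53 binds in pairs, including an adjacent pair with up to 1 mismatch in each decamer. Capitals in Cdkn2a mark an E2F match (TTTNNCGC with N as C or G) and 2 GC boxes (GGGCGG), and capitals in Cdkn2b mark a CRE (TGACGTCA). Both strands were searched.
Cdkn1a, chr17:29090729-29090978, plus strand: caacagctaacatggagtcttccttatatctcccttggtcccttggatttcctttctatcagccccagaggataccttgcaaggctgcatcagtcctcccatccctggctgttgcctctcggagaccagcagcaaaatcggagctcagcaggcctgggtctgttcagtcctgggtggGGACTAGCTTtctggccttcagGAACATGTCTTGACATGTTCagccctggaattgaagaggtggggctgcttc
Cdkn2a, upstream start, chr4:89294620-89294869, minus strand: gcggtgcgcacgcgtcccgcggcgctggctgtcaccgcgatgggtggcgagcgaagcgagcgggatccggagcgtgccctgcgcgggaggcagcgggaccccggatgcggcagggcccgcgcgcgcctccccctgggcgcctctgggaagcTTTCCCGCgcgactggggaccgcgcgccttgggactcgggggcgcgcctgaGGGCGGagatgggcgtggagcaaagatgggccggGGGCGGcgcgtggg
Cdkn2b, chr4:89311033-89311282, minus strand: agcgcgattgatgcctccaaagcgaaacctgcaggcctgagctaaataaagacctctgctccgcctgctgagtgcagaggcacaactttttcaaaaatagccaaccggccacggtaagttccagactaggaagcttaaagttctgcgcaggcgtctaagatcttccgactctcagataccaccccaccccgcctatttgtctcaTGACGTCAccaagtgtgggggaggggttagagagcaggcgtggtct
The 20 bases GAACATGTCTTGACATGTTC in Cdkn1a lie from 51 to 32 bases before its upstream RefSeq start. Such an adjacent pair was found in 34 of 32536 RefSeq windows of the same length, or 0.105%, whereas a single p53 decamer was in 7.12%. The E2F match was in 1.88% of the windows, the CRE in 1.56% and the GC box in 33%. The window of a downstream Cdkn1a start (chr17:29093519-29093768) held GC boxes and no p53 decamer. GC boxes were also in windows of Cdkn1b, Cdkn2c and Ccnd3, and no p53 decamer was in the windows of the other members with counts. These matches are descriptions of the letters and not bound sites.

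Between 33203757 and 45279321 reads were counted per sample, and no matched member had fewer than 449 reads in any sample. The third WT sample stood apart from the other two both without treatment and after NCS, differing from them at a mean chi-square of 7.57 to 9.37 over genes, where the other pairs of samples within a group gave 2.03 to 2.34, so results that rest on it are given without it. All 3KR samples held Xist, the transcript of the inactive X, at 30590 to 35635 normalized counts against 32.3 to 62.5 in WT samples, while the Y-linked Ddx3y was at most at 16.2 in 3KR and at 5370 to 5822 in WT samples. The sex of the cells and their genotype therefore cannot be told apart. E2f1 itself, whose count does not show the point mutations, was at 1042 to 1296 normalized counts over all samples and passed the test in no comparison (edgeR adjusted p of 0.135 or more). Of other cell types, summed macrophage markers were at 249 to 280 CPM in 3KR and 137 to 168 in WT samples, summed Schwann cell and neural crest markers at 89.3 to 92.7 and 299 to 320, and summed skeletal muscle markers at 52.3 to 58.9 and 137 to 144. Most of the muscle sum was Des, at 120 CPM in untreated WT and 41.5 in untreated 3KR MEFs, and Acta1, at 18.2 and 11.9. Myod1, Myog, Myf5, Pax7 and Tnnt3 had group means of at most 0.948 CPM. Without treatment, 16 of 17 macrophage markers were higher and 10 of 13 tested Schwann cell and neural crest markers lower in 3KR MEFs, where 45.7% of all tested genes were called. Pou3f1 and the muscle gene Ckm were at 0 in every sample. Summed fibroblast markers were at 70195 to 73241 CPM in 3KR and 62438 to 67387 in WT samples, whereas endothelial and epithelial markers stayed at or under 6.76. Between untreated genotypes, 10 of 12 fibroblast markers were higher and 2 lower in 3KR MEFs. Those lower were Fn1, at 14809 CPM in untreated WT and 11594 in untreated 3KR MEFs, and Vim, at 3864 and 3459. In these bulk samples, fewer cells of a type and less RNA per cell cannot be told apart.

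**Figure D1:**
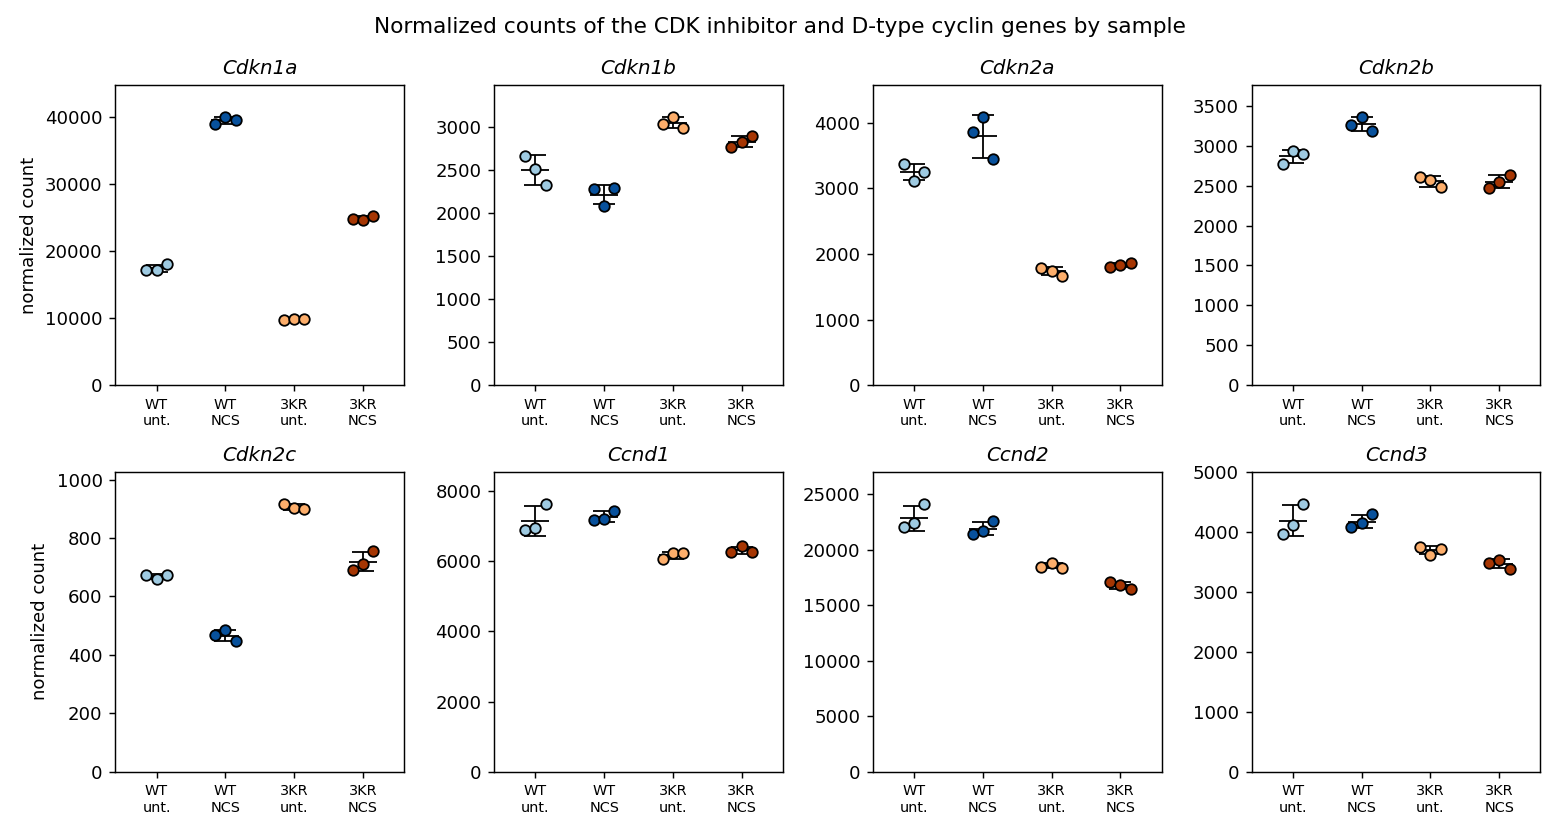
Normalized counts (vertical axes, from 0) of the 8 matched genes in the 4 groups; each point is 1 of 3 samples, and the bars give the mean and SD. Cdkn1a was higher after NCS and lower in 3KR MEFs, while Cdkn1b and Cdkn2c were higher in 3KR MEFs.

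The first comparison asked how the members responded to DNA damage in WT MEFs. Of the 8 genes, 5 changed with NCS, where 26.7% of all tested genes passed the same test (edgeR adjusted p under 0.05, either direction). Cdkn1a, Cdkn2a and Cdkn2b rose, Cdkn1b and Cdkn2c fell, and no D-type cyclin passed the test. In 3KR MEFs, 3 of 8 changed, where 30.8% of all genes did. Cdkn1a rose, and Cdkn2c and Ccnd2 fell.

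Cdkn1a (ENSMUSG00000023067, chromosome 17) encodes p21, the CDK inhibitor that p53 induces. In untreated WT MEFs its normalized counts were 17086, 17068 and 18008, and after NCS they were 38956, 39929 and 39430. In untreated 3KR MEFs they were 9734, 9833 and 9882, and after NCS 24800, 24533 and 25139. None of the 4 groups overlapped, and the NCS-treated 3KR samples lay between the untreated and the treated WT samples. The increase was 2.26-fold in WT MEFs (log2 fold change 1.18, SE 0.03, edgeR adjusted p = 1.32e-18) and 2.53-fold in 3KR MEFs (1.34, SE 0.03, adjusted p = 1.02e-19), the lowest p of all tested genes in both comparisons.

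The response of Cdkn1a differed between genotypes by 0.16 on the log2 scale (SE 0.04, 95% interval 0.08 to 0.24, edgeR adjusted p = 0.0189), the only member of 8 called, where 3.73% of all genes were. The scale sets the direction of this difference. In fold change the 3KR response was the larger, whereas in normalized counts the mean rose by 15008 (SE 180) in 3KR and by 22051 (SE 419) in WT MEFs, from a lower starting level in 3KR. The call was lost, with adjusted p from 0.0548 to 0.0679, when the first treated WT sample, the first untreated 3KR sample, or the first or the third treated 3KR sample was left out. Over all alternatives the adjusted p ranged from 4.17e-05 to 0.0679 and the difference from 0.13 to 0.18.

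**Figure D2:**
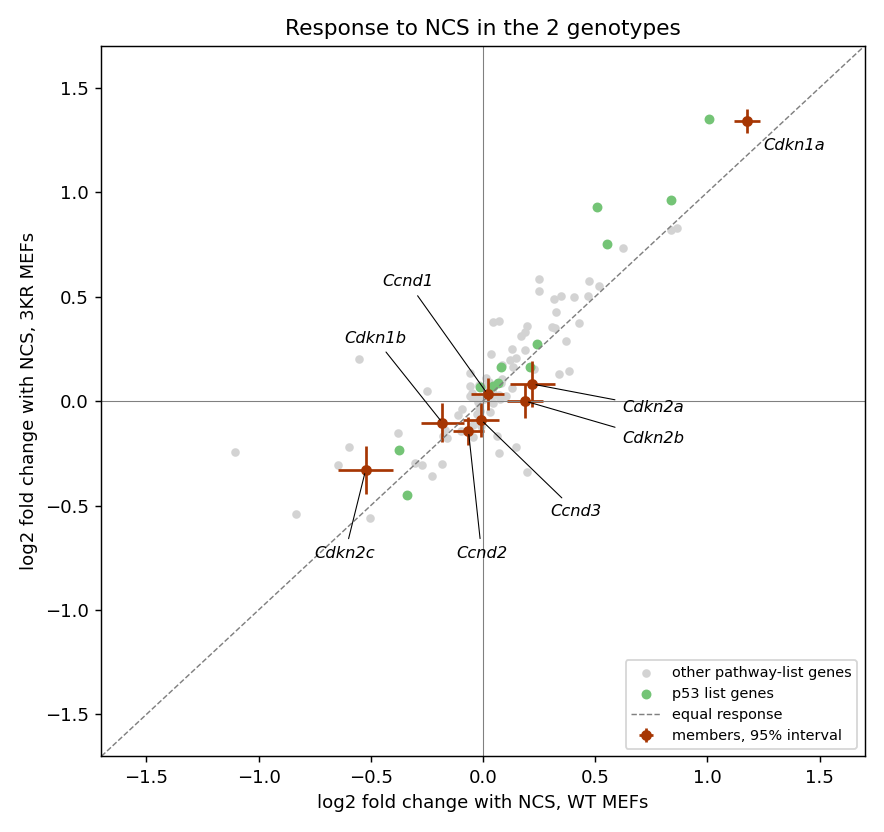
Log2 fold change with NCS in WT MEFs (horizontal) against that in 3KR MEFs (vertical) for the 8 members with 95% intervals, for the genes of the p53 list and for the other pathway genes; the dashed line marks an equal response. Cdkn1a, at 1.18 and 1.34, lies above the line with p53 list genes such as Ccng1, while Cdkn2a and Cdkn2b lie below it.

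Cdkn1b (ENSMUSG00000003031, chromosome 6) encodes p27, which holds CDK2 inactive in quiescent cells. Its normalized counts in WT MEFs were 2669, 2513 and 2327 without treatment and 2281, 2085 and 2289 after NCS. The treated samples all lay below the untreated ones, by a small margin in the third sample. Cdkn1b fell in WT MEFs (log2 fold change -0.18, SE 0.05, edgeR adjusted p = 0.00508), but not past the threshold without the first untreated sample (-0.13, adjusted p = 0.0562), in a range of 3.25e-07 to 0.0562 over all alternatives. In 3KR MEFs the counts were 3044, 3120 and 2991 without treatment and 2774, 2833 and 2900 after NCS, a log2 difference of -0.10 (SE 0.05, edgeR adjusted p = 0.0880) that did not pass. It passed under 4 alternatives, among them the fit on the 3KR samples alone (adjusted p = 0.00318, in a range of 0.00318 to 0.246). The response of Cdkn1b differed between genotypes by 0.08 (SE 0.06, edgeR adjusted p = 0.618), in a range of 0.0452 to 0.904 over the alternatives. That difference passed only without both WT samples numbered 3.

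Cdkn2a (ENSMUSG00000044303, chromosome 4) encodes 2 proteins from separate starts, the CDK4/6 inhibitor p16Ink4a and the p53 activator p19Arf, and the counts pool both. The sequence shown above precedes the upstream start, which yields p19Arf. In WT MEFs its normalized counts were 3370, 3122 and 3258 without treatment and 3857, 4090 and 3444 after NCS. Every treated sample was above every untreated one, and the third treated sample was the nearest to them. Cdkn2a rose in WT MEFs (log2 fold change 0.22, SE 0.05, edgeR adjusted p = 0.00147). In 3KR MEFs the counts were 1793, 1743 and 1671 without treatment and 1801, 1835 and 1864 after NCS, a log2 difference of 0.08 (SE 0.05, adjusted p = 0.275).

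Cdkn2b (ENSMUSG00000073802, chromosome 4), next to Cdkn2a, encodes p15Ink4b, an inhibitor of CDK4 and CDK6 known for its induction by TGF-beta. Its normalized counts in WT MEFs were 2772, 2938 and 2896 without treatment and 3269, 3362 and 3191 after NCS. The groups did not overlap, and Cdkn2b rose (log2 fold change 0.19, SE 0.04, edgeR adjusted p = 0.000611). In 3KR MEFs the counts were 2611, 2570 and 2484 without treatment and 2468, 2549 and 2636 after NCS. These overlapped, and the 95% interval of the log2 difference ran from -0.08 to 0.08. The test of the difference in response gave -0.19 (SE 0.05, adjusted p = 0.0572), just short of the threshold, in a range of 0.000919 to 0.169 over the alternatives. It passed with the replicate number as a block (adjusted p = 0.00832), although the numbers tie treated to untreated only for the third WT sample and for no 3KR sample. For Cdkn2a the same test gave -0.14 (SE 0.07, adjusted p = 0.354). Without both WT samples numbered 3, these differences were -0.22 for Cdkn2b (adjusted p = 0.000919) and -0.21 for Cdkn2a (adjusted p = 0.00352).

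Cdkn2c (ENSMUSG00000028551, chromosome 4) encodes p18Ink4c, whose transcript is known to rise in cycling cells. In WT MEFs its normalized counts were 672, 659 and 675 without treatment and 467, 485 and 447 after NCS. In 3KR MEFs they were 917, 902 and 899 without treatment and 692, 711 and 756 after NCS. No groups overlapped, although the treated 3KR samples began just above the untreated WT samples. Cdkn2c fell to 0.70-fold in WT (log2 fold change -0.52, SE 0.06, edgeR adjusted p = 4.12e-07) and to 0.80-fold in 3KR MEFs (-0.33, SE 0.06, adjusted p = 6.23e-05), and the responses did not differ past the threshold (0.19, 95% interval 0.02 to 0.36, adjusted p = 0.229).

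Ccnd1 (ENSMUSG00000070348, chromosome 7) encodes cyclin D1, the D-type cyclin that growth factors induce in fibroblasts. Its normalized counts in WT MEFs were 6868, 6925 and 7625 without treatment and 7159, 7185 and 7435 after NCS, and in 3KR MEFs 6055, 6221 and 6227 without treatment and 6255, 6419 and 6243 after NCS. The WT groups overlapped, and the 3KR groups were separated by less than the spread within either. The 95% interval of the log2 fold change with NCS ran from -0.05 to 0.10 in WT and from -0.04 to 0.11 in 3KR MEFs. Exons of the coding gene LTO1 on the other strand cover 23.4% of the exon bases of Ccnd1 in GENCODE M21. The library kit was stranded, but the strand setting of the counting was not stated. Reads over the shared bases may thus have been added to Ccnd1 or left out of it, and its values are uncertain to that extent. LTO1 itself was counted at 849 to 1271 reads per sample against 5502 to 8290 for Ccnd1.

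Ccnd2 (ENSMUSG00000000184, chromosome 6) encodes cyclin D2. In 3KR MEFs its normalized counts were 18447, 18807 and 18368 without treatment and 17090, 16808 and 16422 after NCS, without overlap, and it fell (log2 fold change -0.14, SE 0.03, edgeR adjusted p = 0.00172). In WT MEFs the counts were 22008, 22394 and 24124 without treatment and 21444, 21663 and 22592 after NCS. These groups overlapped, since the third sample was the highest in both, and the log2 difference of -0.06 (SE 0.03, adjusted p = 0.154) did not pass. With the replicate number as a block it did (adjusted p = 0.0181, in a range of 0.0181 to 0.579 over the alternatives). The difference in response was -0.08 (SE 0.05, adjusted p = 0.428), in a range of 0.00495 to 0.681 over the alternatives. It passed without both WT samples numbered 3.

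Ccnd3 (ENSMUSG00000034165, chromosome 17) encodes cyclin D3. Its normalized counts in WT MEFs were 3975, 4122 and 4471 without treatment and 4078, 4144 and 4294 after NCS, with overlap and a log2 difference of -0.01 (SE 0.04, edgeR adjusted p = 0.900). In 3KR MEFs they were 3753, 3622 and 3711 without treatment and 3486, 3536 and 3388 after NCS. The treated 3KR samples were all lower, but the log2 difference of -0.09 (SE 0.04, adjusted p = 0.0932) did not pass, while in the fit on the 3KR samples alone it did (adjusted p = 0.00562, in a range of 0.00435 to 0.271). Bysl on the opposite strand covers 4.11% of its exon bases.

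**Figure D3:**
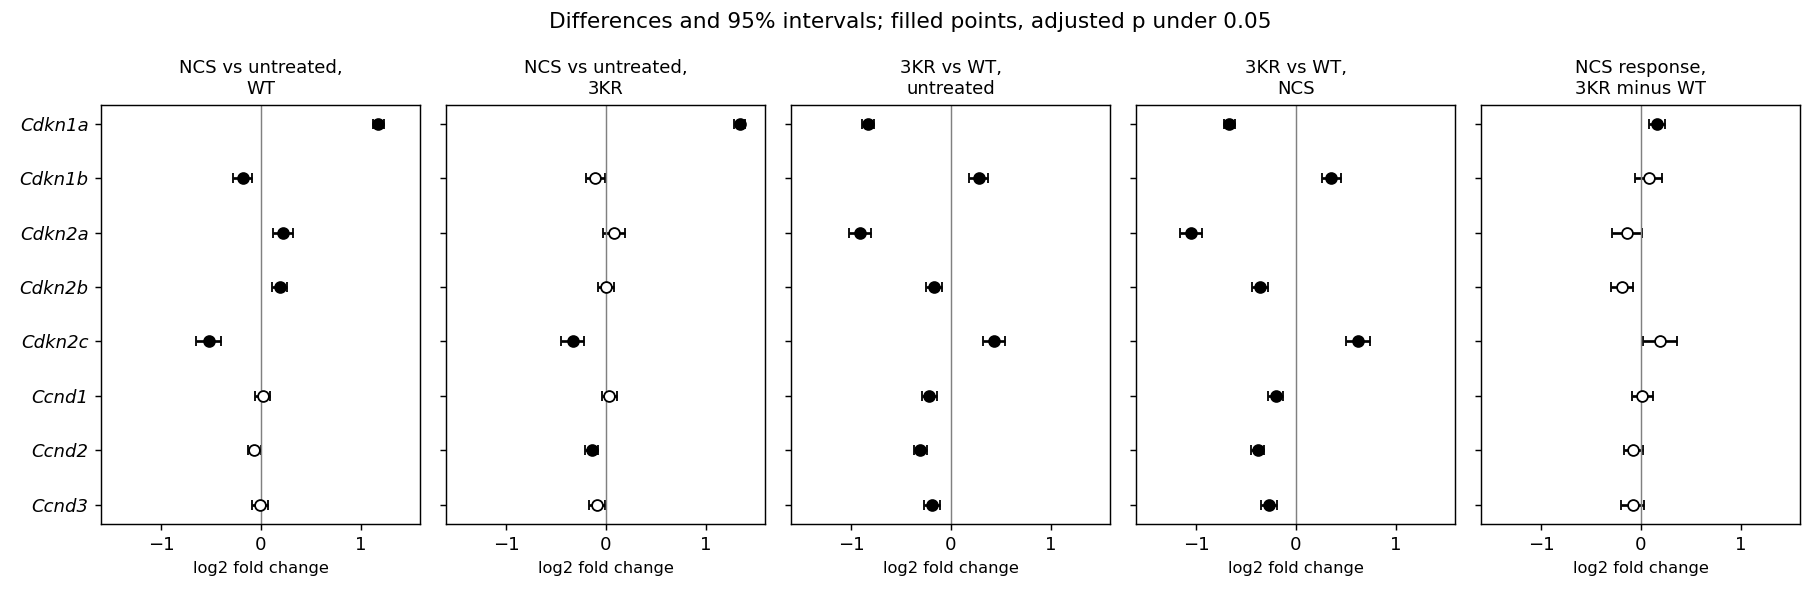
Log2 differences (horizontal axes) with 95% intervals for the 8 members in the 5 comparisons; filled points passed the test. Every member passed in both comparisons of 3KR with WT MEFs, Cdkn1b and Cdkn2c to the right of 0 and the others to the left, while 1 passed for the difference in response.

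The second question was how the members differed between genotypes. All 8 differed between untreated 3KR and WT MEFs, where 45.7% of all tested genes did, and all 8 differed after NCS, where 46.5% did. With almost 1 gene in 2 called, these counts say little of the members as a set, and the sizes are of more use. Cdkn2a and Cdkn1a had the largest differences among the members. Untreated 3KR MEFs held Cdkn2a at 0.53-fold (log2 fold change -0.91, SE 0.05, edgeR adjusted p = 4.85e-13) and Cdkn1a at 0.56-fold (-0.83, SE 0.03, adjusted p = 2.86e-17) of the WT level. After NCS the fold was 0.48 for Cdkn2a (-1.05, SE 0.05, adjusted p = 3.87e-14) and 0.63 for Cdkn1a (-0.67, SE 0.03, adjusted p = 1.65e-15). Both had lower values in every 3KR sample than in any WT sample given the same treatment.

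Cdkn2b was also lower in 3KR MEFs, by a smaller amount, at 0.89-fold without treatment (log2 fold change -0.17, SE 0.04, edgeR adjusted p = 0.000729) and 0.78-fold after NCS (-0.36, SE 0.04, adjusted p = 4.49e-08). The 2 other inhibitors went the other way. Cdkn2c was 1.35-fold higher in untreated 3KR MEFs (0.43, SE 0.06, adjusted p = 6.40e-07) and 1.54-fold higher after NCS (0.62, SE 0.06, adjusted p = 6.44e-09). Cdkn1b was 1.21-fold higher (0.28, SE 0.05, adjusted p = 2.07e-05) and 1.28-fold higher (0.35, SE 0.05, adjusted p = 9.69e-07). Within the INK4 class, Cdkn2c thus differed in direction from Cdkn2a and Cdkn2b, and within the Cip/Kip class, Cdkn1b differed in direction from Cdkn1a.

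All 3 D-type cyclins were lower in 3KR MEFs. Without treatment the log2 fold change was -0.31 for Ccnd2 (SE 0.03, edgeR adjusted p = 3.83e-08), -0.22 for Ccnd1 (SE 0.04, adjusted p = 3.16e-05) and -0.19 for Ccnd3 (SE 0.04, adjusted p = 0.000389). After NCS it was -0.38 for Ccnd2 (adjusted p = 9.70e-10), -0.20 for Ccnd1 (adjusted p = 7.26e-05) and -0.27 for Ccnd3 (adjusted p = 5.83e-06). The summed level of the 3 genes, in CPM per kb of exon, was 116 ± 6.32 in untreated WT and 96.8 ± 0.76 in untreated 3KR MEFs, and 114 ± 2.44 and 92.1 ± 1.34 after NCS (SD, n = 3). The sums did not overlap between genotypes. The macrophage, Schwann cell and skeletal muscle markers, and the sex of the cells, differ between genotypes as given above, and their part in these differences was not tested.

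Levels were compared between genes per length, as CPM per kb of all exon bases in GENCODE M21. In untreated WT MEFs, Cdkn1a had the highest level (128 ± 4.07), followed by Cdkn2a (72.8 ± 2.83), Ccnd2 (63.7 ± 3.19), Cdkn2b (54.2 ± 1.61), Ccnd1 (39.8 ± 2.38), Cdkn1b (14.4 ± 0.99), Ccnd3 (12.5 ± 0.77) and Cdkn2c (6.54 ± 0.086) (SD, n = 3). No neighbours in this order overlapped, but the order depends on the length used. Per kb of the principal transcript, Ccnd3 was at 52.0 ± 3.19, above Cdkn1b (14.4 ± 0.99) and overlapping Cdkn2b (54.2 ± 1.61) and Ccnd1 (50.1 ± 3.00), and Cdkn2a (95.3 ± 3.71) overlapped Ccnd2 (94.7 ± 4.73). Per kb of all exon bases, in untreated 3KR MEFs Cdkn2a was the fourth (38.7 ± 1.37), behind Ccnd2 (51.5 ± 0.64) and Cdkn2b (48.1 ± 1.22), whereas per kb of the principal transcript it overlapped Cdkn2b. After NCS, Cdkn2b and Ccnd2 overlapped in both genotypes, and Cdkn1b and Ccnd3 in WT MEFs, and with principal transcript lengths these pairs were apart. Cdkn1a stayed the highest in all groups with either length, with 291 ± 3.56 in treated WT and 183 ± 2.33 in treated 3KR MEFs per kb of all exon bases.

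The summed level of the 5 matched inhibitors was 276 ± 4.40 in untreated and 454 ± 11.6 in treated WT MEFs, and 185 ± 2.39 and 295 ± 4.70 in 3KR MEFs (CPM per kb, SD, n = 3). Cdkn1a made up 46.5% ± 0.85 of this sum in untreated and 64.0% ± 1.14 in treated WT MEFs, and 39.0% ± 0.78 and 62.0% ± 0.52 in 3KR MEFs. The share of Cdkn2a was 26.3% ± 0.89 in untreated WT and 20.9% ± 0.48 in untreated 3KR MEFs, while that of Cdkn2b was 19.6% ± 0.71 and 25.9% ± 0.33. These shares depend on the length used. With principal transcript lengths, Cdkn1a made up 56.2% ± 0.86 in untreated WT and 49.5% ± 0.84 in untreated 3KR MEFs. In untreated 3KR MEFs, Cdkn2a (20.3% ± 0.53) then came before Cdkn2b (19.3% ± 0.30). Among the D-type cyclins, Ccnd2 made up 54.9% ± 0.25 in untreated WT MEFs and 50.7% ± 0.53 in treated 3KR MEFs, and Ccnd1 made up 34.3% ± 0.24 and 38.1% ± 0.49 in the same groups, with no test of the shares. The share of Ccnd3 was 10.8% ± 0.12 in untreated WT MEFs. Its exon bases in all transcripts sum to 8775, whereas its principal transcript has 2113, and with principal transcript lengths its share was 26.4% ± 0.24, just above the 25.4% ± 0.20 of Ccnd1.

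**Figure D4:**
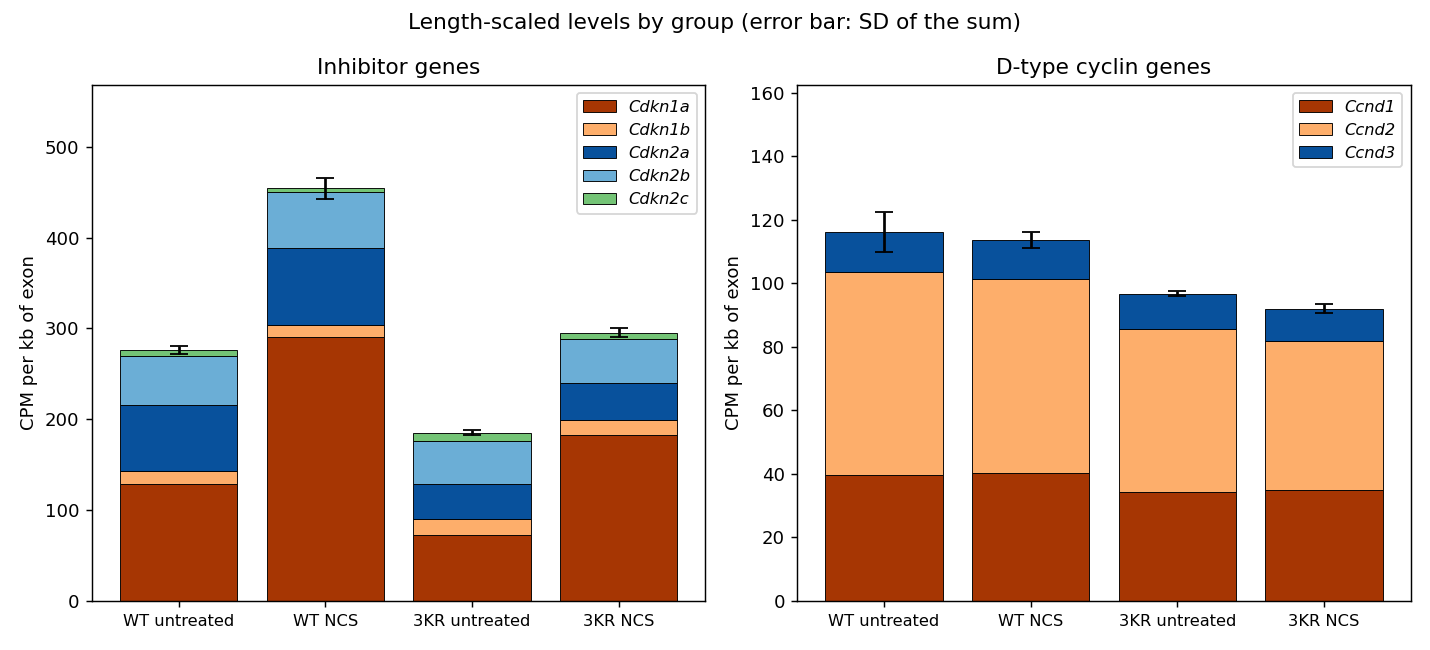
Summed levels (CPM per kb of exon, from 0) of the 5 matched inhibitor genes and the 3 D-type cyclin genes in the 4 groups; segments are group means and error bars the SD of the sum over 3 samples. The inhibitor sum was higher after NCS, 454 against 276 in WT MEFs, mostly through the Cdkn1a segment, while the cyclin sum was lower in 3KR MEFs.

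Other genes of the pathway were taken from lists of partner kinases, cyclins and regulators. Their counts are to be read beside the share of all tested genes called, 26.7% with NCS in WT, 30.8% with NCS in 3KR and 45.7% between untreated genotypes. Of 12 p53 arrest targets and p53 turnover genes, 5 rose and 2 fell with NCS in WT MEFs (58.3% called), and 6 rose and 2 fell in 3KR MEFs (66.7%). The median log2 fold change was 0.14 and 0.16, beside 0.00536 and -0.000785 over all tested genes. Ccng1, which encodes cyclin G1, rose by 1.01 (SE 0.03, edgeR adjusted p = 3.91e-16) and 1.35 (SE 0.03, adjusted p = 1.28e-18). Mdm2, the ligase that degrades p53, rose by 0.84 (adjusted p = 4.62e-14) and 0.96 (adjusted p = 5.11e-15). The 2 that fell were the same in both genotypes, Gadd45a (-0.38 in WT and -0.23 in 3KR MEFs) and Sesn1 (-0.34 and -0.45). Untreated 3KR MEFs had lower Ccng1 (-0.76, adjusted p = 2.98e-15), Mdm2 (-0.79, adjusted p = 2.30e-14) and Btg2 (-0.57, adjusted p = 1.86e-10), among 5 lower and 2 higher of 12. The response was larger in 3KR MEFs on the log2 scale for Ccng1 (0.34, adjusted p = 5.73e-05), Btg2, an antiproliferative p53 target (0.42, adjusted p = 0.000184), and Zmat3 (0.20, adjusted p = 0.0282), and no gene of the list passed the test with a smaller one. In normalized counts, the mean of Ccng1 rose by 17576 (SE 221) in 3KR and by 19414 (SE 955) in WT MEFs. This gap was not tested, and with the SE in WT MEFs its direction is uncertain. Btg2 rose by 2371 (SE 47.3) in 3KR and by 1653 (SE 201) in WT MEFs, and Zmat3 by 2944.5 (SE 109) and 2475 (SE 161).

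Among 11 partner kinases and CDK-activating genes, 2 rose and 2 fell with NCS in WT (36.4% called, beside 26.7% of all genes), and 4 rose and 2 fell in 3KR MEFs (54.5%, beside 30.8%). Cdk4, the main partner of D-type cyclins, was at 13496 ± 123 normalized counts in untreated WT and 14373 ± 136 in untreated 3KR MEFs, whereas Cdk6 was at 326 ± 16.5 and 286 ± 9.72 (SD, n = 3). Cdk1, the mitotic kinase, fell with NCS by 0.38 in WT (edgeR adjusted p = 3.62e-07) and by 0.15 in 3KR MEFs (adjusted p = 0.0070) on the log2 scale. It was higher in 3KR than in WT MEFs without treatment (0.23, adjusted p = 7.14e-05) and after NCS (0.46, adjusted p = 4.75e-09). Of 5 tested E- and A-type cyclins and CDK subunits, 2 fell with NCS in each genotype and none rose. Ccna2, the S phase cyclin A2, fell by 0.83 in WT (SE 0.04, adjusted p = 6.06e-13) and by 0.54 in 3KR MEFs (SE 0.04, adjusted p = 4.82e-10), a difference in response of 0.29 (SE 0.06, adjusted p = 0.0049).

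Of the retinoblastoma genes, Rb1 rose with NCS by 0.84 in WT (SE 0.07, edgeR adjusted p = 8.47e-10) and 0.82 in 3KR MEFs (SE 0.07, adjusted p = 2.85e-09). In untreated 3KR MEFs it was lower (-0.37, adjusted p = 0.000145), whereas Rbl1 (0.47, adjusted p = 3.13e-07) and Rbl2 (0.34, adjusted p = 2.52e-05), which encode p107 and p130, were higher. Of 3 other genes listed with the CDK inhibitors (Cdkn1c, Cdkn3 and Cables1), 2 were higher in untreated 3KR MEFs and none was lower. That is 66.7% called, beside 45.7% of all genes. Cdkn1c, which encodes the third Cip/Kip protein p57, was at 533 ± 21.1 normalized counts in untreated WT and 844 ± 2.30 in untreated 3KR MEFs (log2 fold change 0.66, SE 0.07, adjusted p = 3.53e-08). It rose with NCS in WT MEFs (0.19, adjusted p = 0.0482), only just past the threshold and with overlapping samples. It fell in 3KR MEFs (-0.34, adjusted p = 0.000497), and the difference in response passed the test (-0.54, SE 0.10, adjusted p = 0.0021). Cables1 was higher in untreated 3KR MEFs by 1.51 (SE 0.11, adjusted p = 3.32e-11).

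Upstream of the D-type cyclins, 10 of 18 mitogen-induced transcription factors and ERK feedback genes rose and 4 fell with NCS in WT MEFs, and 12 rose and 2 fell in 3KR MEFs (77.8% called in each, beside 26.7% and 30.8% of all genes). In untreated 3KR MEFs, 11 of the 18 were lower and 2 higher (72.2% called, beside 45.7% of all genes), with a median log2 fold change of -0.28 beside -0.000356 over all tested genes. Dusp6, the ERK phosphatase, was lower by 0.99 (edgeR adjusted p = 2.36e-14), Dusp5 by 0.97 (adjusted p = 5.40e-11) and Etv5 by 0.54 (adjusted p = 9.65e-10) on the log2 scale. Between treated genotypes the list was more mixed, with 7 lower and 5 higher in 3KR MEFs (66.7% called, beside 46.5% of all genes). The median there was -0.06. Egr1, an immediate-early factor, fell with NCS by 1.11 in WT (adjusted p = 2.08e-15) and by 0.24 in 3KR MEFs (adjusted p = 4.49e-05), and the difference of 0.86 (SE 0.06) passed the test (adjusted p = 4.38e-09).

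Among 18 transcription regulators of the Cdkn2a-Cdkn2b locus, 7 rose and 3 fell with NCS in WT (55.6% called, beside 26.7% of all genes), and 8 rose and 3 fell in 3KR MEFs (61.1%, beside 30.8%), led by Ets1 (0.47 and 0.50), an activator of p16Ink4a, and Tbx3 (0.52 and 0.55), a repressor of p19Arf. In untreated 3KR MEFs 5 were higher and 4 lower, which at 50% is near the 45.7% of all genes, with a median of -0.01. Of 12 FOXO, SMAD and KLF regulators of inhibitor genes, 7 rose and 1 fell in WT (66.7%) and 6 rose and 1 fell in 3KR MEFs (58.3%), with Klf4 (0.47 and 0.57) and Foxo3 (0.40 and 0.50) among those that rose. Of 15 genes for the turnover of p21, p27 and D-type cyclins, 1 rose and 2 fell in WT (20%, below the 26.7% of all genes), and 3 rose and 4 fell in 3KR MEFs (46.7%), and Dtl, which directs p21 to degradation in S phase, was higher in untreated 3KR MEFs by 0.53 (SE 0.06, edgeR adjusted p = 1.28e-07).

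**Figure D5:**
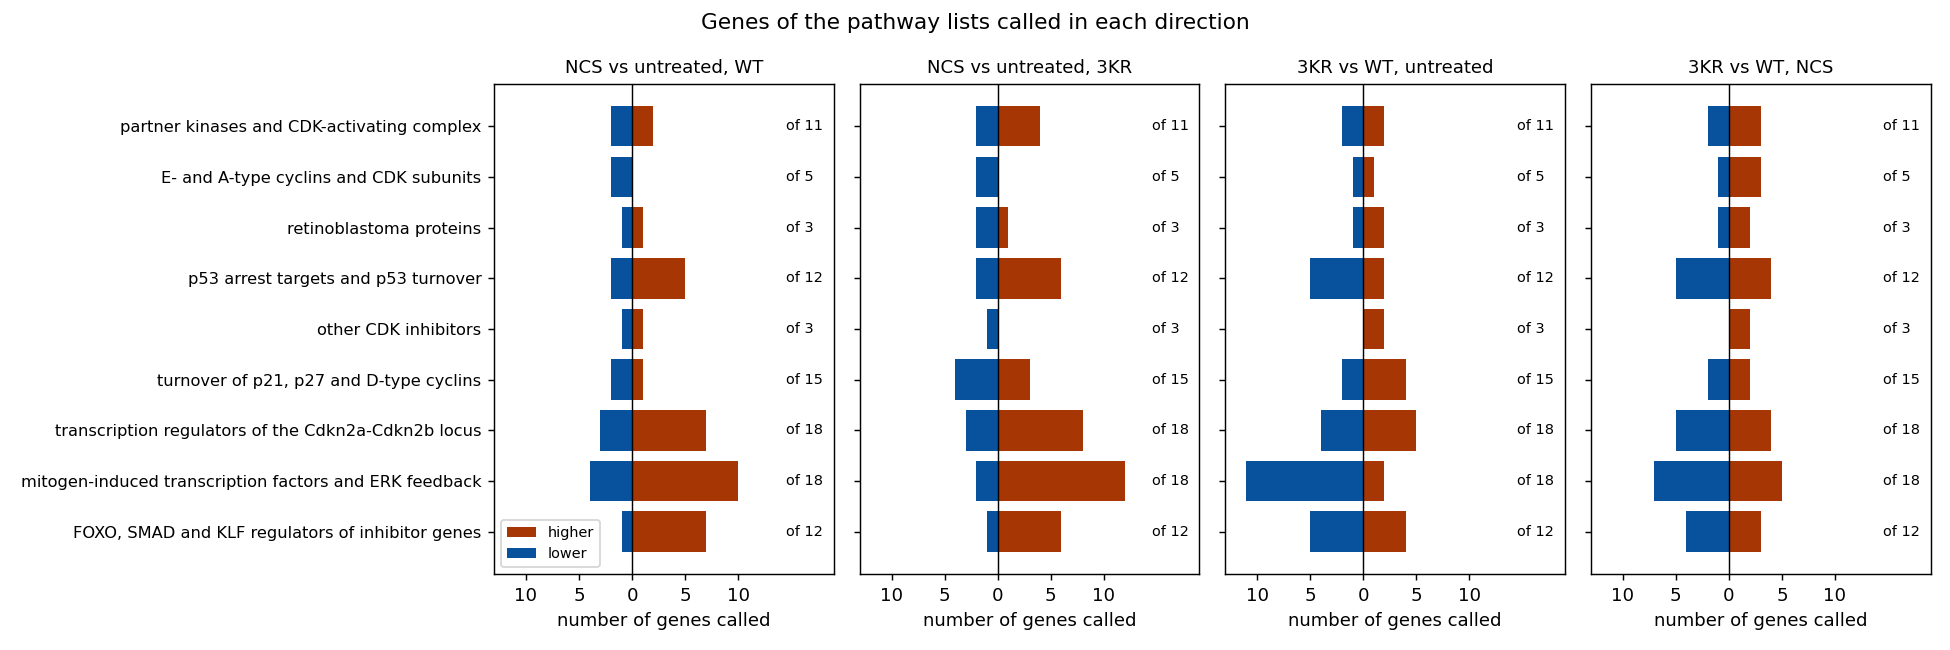
Number of genes called higher (right) or lower (left) in each pathway list (rows) for 4 comparisons, with the number tested beside each bar. The mitogen and ERK list had 11 of 18 genes lower in untreated 3KR MEFs and 12 of 18 higher with NCS in 3KR MEFs.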

How the data were processed

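The authors deposited raw read counts per Ensembl gene for each sample, neither normalized nor filtered. The submitters' processing notes name TopHat, HTSeq and DESeq and the build mm9, without versions, and the strand setting of counting is not given in the sources used here. The library kit was TruSeq Stranded mRNA. Symbols were matched through GENCODE M21 (GRCm38) for 32919 of 37991 identifiers, and the matched identifiers held 99.4% or more of every library.

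Groups were taken from the labels. After filterByExpr and TMM scaling, edgeR 4.0.16 (R 4.3.3) was run with its quasi-likelihood test, 1 coefficient per group over all 12 samples and Benjamini-Hochberg adjustment over 15327 genes, two-sided at 0.05. Normalized counts are counts divided by DESeq2 1.42.0 size factors. Where samples are said to overlap or not, this is a description, and no share over all genes is given beside it. Per-length levels are TMM-scaled CPM per kb of exon. The common biological coefficient of variation was 3.95%. The steps were tested on simulated counts. The floor of 3 counts was 0.0663 to 0.0904 CPM, for counting error only.

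The text names all members, E2f1, Xist and Ddx3y, up to 3 genes of the lowest p per pathway list and comparison, and 3 genes most alike to each member. Genes so named in 1 comparison are also given in others. Cdk4 was added as the main partner of the D-type cyclins, and Gadd45a and Sesn1 as the p53 list genes that fell with NCS. Members and lists were chosen with earlier results of these data known.

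Deviations of untreated and treated samples with the same number correlated at 0.267, 0.234 and 0.468 in WT MEFs, over 9602 genes. WT samples 1 and 2 correlated across numbers at 0.223 and 0.236, and the third with both at -0.364 to -0.300. The numbers thus tie treated to untreated only for the third WT sample and do not tell samples 1 and 2 apart. In 3KR MEFs the same numbers correlated at 0.00102 to 0.0502, and there they do not pair the samples. The values given have no pairing unless the replicate block is named. Alternatives were DESeq2 size factors, the DESeq2 Wald test, no filter, a minimum of 10 counts throughout, a fit on the samples compared, the replicate block and leaving out each sample. Leaving out both WT samples numbered 3, and principal transcript lengths, were added after seeing the data. Proteins and Cdkn2d were not analysed here.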

Additional observations from a re-analysis of the deposited data

Results flagged for a closer look

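The response of Cdkn1a to NCS was larger in 3KR than in WT MEFs by 0.16 on the log2 scale (edgeR adjusted p = 0.0189), a difference between genotypes under the same contrast. In normalized counts the rise was the smaller in 3KR MEFs, 15008 against 22051 in WT MEFs. The call was lost under 4 of 18 alternatives, with edgeR adjusted p up to 0.0679.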

How the results depend on the processing

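The 16 differences between genotypes kept their direction and stayed past the threshold under all 13 alternatives run for each. The number of members changed by NCS in 3KR MEFs was 5 in place of 3 in the fit on the samples compared, with the replicate block and without both WT samples numbered 3, adding Cdkn1b and Ccnd3. The number with a different response was 1, but 2 with DESeq2 size factors, the Wald test of DESeq2, no filter or the replicate block, which added Cdkn2b (adjusted p = 0.0481, 0.0335, 0.0396 and 0.00832), and 5 without both WT samples numbered 3 (Cdkn1a, Cdkn1b, Cdkn2a, Cdkn2b and Ccnd2). It ranged from 0 to 3 with 1 sample left out, being 3 without the third untreated or treated WT sample. The replicate block changed no other call except that of Ccnd2 in WT MEFs. Not every sample correlated best with its own number. Values near 0 turned sign. For Cdkn2b with NCS in 3KR MEFs (2.17e-05) they were -0.00125 with DESeq2 size factors, -0.0018 with the Wald test, -0.00651 without a filter, -0.00205 on the samples compared, -0.00249 without both WT samples numbered 3, and -0.0249 to 0.0232 with 1 sample left out. With NCS in WT MEFs, Ccnd1 ranged from -0.00682 to 0.071 and Ccnd3 from -0.0461 to 0.0408 with 1 sample left out, and Ccnd3 was 0.0192 without both WT samples numbered 3. The difference in response of Ccnd1 ranged from -0.0375 to 0.0402 and was -0.022 without both. The causes were not tested. The comparison of responses uses all groups, so no fit on fewer samples was run. Without length scaling, Ccnd2 took 66.9% of D-type cyclin reads in untreated WT MEFs. Counts of the members were 449 or more per sample, and 3 samples a group limit the precision.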

Other observations

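The genes whose log2 CPM followed each member most closely over the 12 samples were found among 11757 genes, and Pearson's r is given as a description, since the samples fall into 4 groups and share library and treatment. For Cdkn1a these were Tnfrsf10b, a death receptor known as a p53 target (r = 0.996), Fbxw9 and Blcap. For Cdkn2c they were Top2a, the topoisomerase of S phase and mitosis (r = 0.994), Rgs4 and Mastl, a mitotic kinase. For Cdkn2a they were Myl9, a myosin light chain of contractile cells, Msx2 and Efemp1 (r = 0.993 each), and for Cdkn2b Prnp (r = 0.973), Pex19 and Rala. Cdkn1b was followed by ENSMUSG00000032424, for which no symbol was matched (r = 0.986), Xntrpc and Tab1. Of the D-type cyclins, Ccnd1 was followed by Flna, which encodes the actin cross-linker filamin A (r = 0.995), Atp6v0a1 and Mast2, Ccnd2 by Npr3 (r = 0.993), Dennd2a and Pls3, and Ccnd3 by Grb10 (r = 0.978), Pls3 and Ccnd2. Of the members, only Ccnd3 had another member among its 3 most alike genes.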
